A study of Homo sapiens with 7 samples.

Results

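Interferon-stimulated genes and cellular RNA sensors were followed in HK-2 cells (an immortalised epithelial line from the proximal tubule of a human kidney) after transfection of small interfering RNA (siRNA). The set is a named list of 39 genes, found by symbol among the 33694 rows of the count table, and all 39 were present. It was put together with the contrast between the groups already known, and IFI44L was picked out in it for its behaviour in that contrast. The values of the 39 genes in this contrast are therefore given as a description. The calls and intervals printed for them come from the fit over all genes and are no independent evidence. One group of 4 libraries (replicates 1 to 4) came from cells given siRNA of scrambled sequence, which the labels also call WT, and the other group of 3 libraries (replicates 2 to 4) from cells given siRNA against GLUT2, the glucose transporter encoded by SLC2A2, called GLUT2-KD. Both groups shared the cell line, the medium, 50 nM of siRNA, the lipid reagent RNAimax and a single harvest at 96 h, so a response common to both siRNAs cannot be seen in the contrast, and cells without siRNA were not analysed here. The labels call the libraries biological replicates of this 1 line, so p-values reflect only how much these libraries vary.

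The sensors RIG-I (DDX58), MDA5 (IFIH1) and TLR3 recognise double-stranded or otherwise foreign RNA and signal to IRF transcription factors, which switch on interferon genes. Secreted interferon binds paired receptor chains, and JAK kinases then phosphorylate STAT proteins such as STAT2, which join IRF9 and bind the interferon-stimulated response element (ISRE) in promoters of antiviral genes. Tubule epithelium has these sensors and receptors, and transfected RNA duplexes are a known trigger of the pathway. The contrast asks whether the cells given GLUT2 siRNA differed from scrambled controls in this gene set, and how IFI44L differed from the other genes of it.

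Total counts were between 5654957 and 8455963 per library. SLC2A2, the target of the siRNA, had 13, 13, 7 and 17 counts in the scrambled libraries and 0 in each of the 3 siGLUT2 libraries. The number of genes with a count was 14844 to 15036 in scrambled and 13433 to 13891 in siGLUT2 libraries, and replicates differed more among siGLUT2 libraries (chi-square per degree of freedom of 9.76 to 16.6 between pairs) than among scrambled libraries (4.70 to 7.85). Of 19 proximal tubule markers, 4 (LRP2, SLC22A6 and SLC22A8 among them) were at 0 in every library and 7 could be tested. The summed level of the 19 was 1366 to 1479 CPM (counts scaled to library size) in scrambled and 895 to 1045 CPM in siGLUT2 libraries. Of the 7 tested, 3 had a fitted change upward and 4 downward in siGLUT2 libraries, so the sum does not describe each marker. The leukocyte markers PTPRC and CD3E, with 7 others of 13, were at 0 in every library, and the list summed to 1.14 to 3.00 CPM in scrambled and 2.50 to 3.60 CPM in siGLUT2 libraries. Fibroblast markers summed to 9.99 to 13.4 and 16.1 to 21.7 CPM, and 5 of 7 endothelial markers were at 0. The part of these differences between the groups in the results that follow was not tested. In bulk RNA, fewer expressing cells and less RNA per cell cannot be told apart.

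In the siGLUT2 libraries IFI44L stood 5.36-fold above the scrambled libraries and was the only gene of the set called higher. The antiviral factors BST2, HERC5, IFITM3, ISG15 and EIF2AK2 were lower, by at most 1.95-fold, and most of the set was not called in either direction. A gene is called here when its p in edgeR's quasi-likelihood test was below 0.05 once adjusted by the Benjamini-Hochberg method across the 12404 genes tested. Fold changes are log2 of siGLUT2 over scrambled ± SE, and levels are CPM, with mean ± SD over n = 4 (scrambled) or n = 3 (siGLUT2). In all, 28 of the 39 genes had enough counts to be tested. Of these, 1 was called higher, 5 were called lower and 22 were not called, a share called of 21.4%. Over all genes tested, 28.3% were called, 13.9% higher and 14.4% lower. The median log2 fold change was -0.13 over the 28 and -0.0029 over all genes tested, and -0.14 with IFI44L left out. For 8 of the 28 the ranges of both groups were separate, with siGLUT2 above for 3 (IFI44L, IFIT5 and IFI6) and below for 5. Groups that do not overlap were seen for 35.1% of all genes tested, 17.2% with siGLUT2 above and 17.9% below. Since the list was drawn up with this contrast known, nothing is read from these shares.

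**Figure D1:**
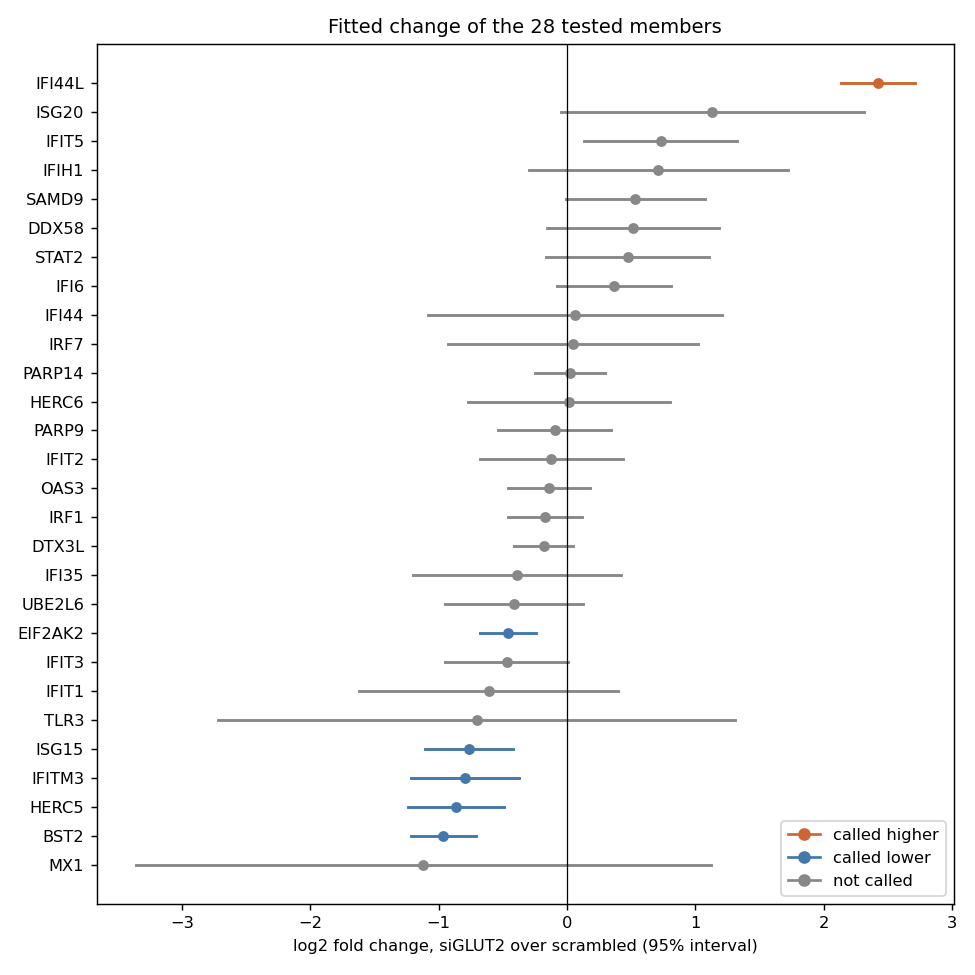
Fitted log2 fold change of siGLUT2 over scrambled (x axis) with its 95% interval for the 28 tested genes (y axis), coloured by call. IFI44L stands at 2.42, and of the other 27 intervals only that of ISG20 reaches as far as the lower bound of IFI44L at 2.13.

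IFI44L encodes an interferon-induced cytoplasmic protein related to IFI44, and both genes are usually counted among the most strongly induced by type I interferon. IFI44L (ENSG00000137959, GRCh38 chr1:78619922-78646145, plus strand) had 23.1, 25.4, 20.2 and 19.9 CPM in the scrambled libraries and 125, 119 and 114 CPM in the siGLUT2 libraries. Every siGLUT2 library lay above every scrambled one, and the means were 22.2 ± 2.6 and 119 ± 5.67 CPM. The log2 fold change was 2.42 ± 0.14 with a 95% interval of 2.13 to 2.71. Among all genes tested, IFI44L ranked 42 by log2 fold change. Leaving out each library in turn gave log2 values from 2.38 to 2.50.

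IFI44, its paralog, begins 3650 bases after the end of IFI44L on the same strand (chr1:78649796-78664078). It had 2.66, 2.52, 4.81 and 7.23 CPM in the scrambled libraries and 7.67, 2.16 and 3.60 CPM in the siGLUT2 libraries. The groups overlapped, with means of 4.3 ± 2.21 and 4.48 ± 2.86 CPM. The log2 fold change of 0.06 ± 0.55 had a 95% interval of -1.09 to 1.21, whose upper end lies under the lower bound for IFI44L. These were 15 to 45 counts per library, and the interval covers both a lower and a higher level, so no direction is read from it. How far its width came from low counts or from differences between replicates was not tested. On the other side, PTGFR, a prostaglandin receptor gene ending 80172 bases before IFI44L, had 4.18 CPM in scrambled and 5.80 CPM in siGLUT2 libraries (0.47 ± 0.50, not called). GIPC2, beyond PTGFR, had 0 counts in every scrambled library and 0, 1 and 4 counts in the siGLUT2 libraries, and ADGRL4, 243618 bases after IFI44L, was at 0 in every library.

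**Figure D2:**
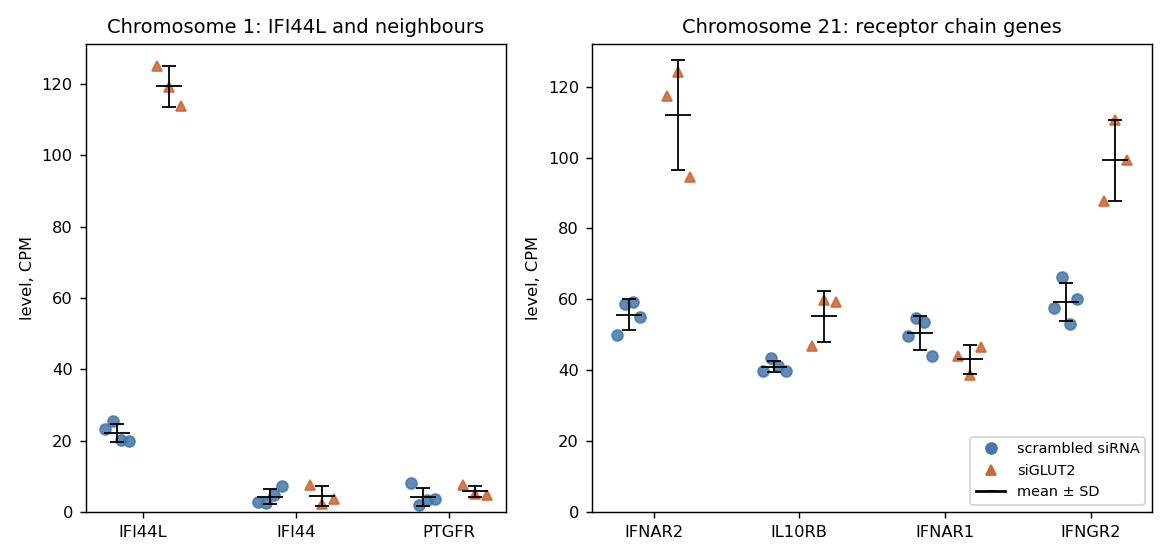
Level in each library (linear axis, CPM) with mean ± SD for each group. The left panel shows IFI44L, IFI44 and PTGFR of chromosome 1. The right panel shows the receptor chain genes IFNAR2, IL10RB, IFNAR1 and IFNGR2 of chromosome 21. The 3 siGLUT2 libraries stand above the 4 scrambled libraries for IFI44L, while the libraries of the groups overlap for IFI44 and PTGFR.

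The sequences before 4 genes of the set are shown because all 4 carry the ISRE core but differed in their calls. IFI44L was called higher, its neighbour IFI44 was not called, and ISG15 and BST2 were called lower. The bases come from RefSeq on GRCh38.p14, give the 250 bases before a RefSeq transcript start 5′ to 3′ on the gene's strand, and have matches to GAAANNGAAA on either strand in capitals. The windows are chr1:78620198-78620447 (plus strand) for IFI44L, chr1:78649539-78649788 (plus) for IFI44, chr1:1013247-1013496 (plus) for ISG15 and chr19:17405631-17405880 (minus) for BST2. The gene spans of IFI44L, ISG15 and BST2 in GENCODE begin upstream of these RefSeq starts.
IFI44L: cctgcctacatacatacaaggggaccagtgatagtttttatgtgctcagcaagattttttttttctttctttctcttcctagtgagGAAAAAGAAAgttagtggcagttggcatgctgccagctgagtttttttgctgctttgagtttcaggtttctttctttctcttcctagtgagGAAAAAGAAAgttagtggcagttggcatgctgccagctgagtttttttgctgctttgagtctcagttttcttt
IFI44: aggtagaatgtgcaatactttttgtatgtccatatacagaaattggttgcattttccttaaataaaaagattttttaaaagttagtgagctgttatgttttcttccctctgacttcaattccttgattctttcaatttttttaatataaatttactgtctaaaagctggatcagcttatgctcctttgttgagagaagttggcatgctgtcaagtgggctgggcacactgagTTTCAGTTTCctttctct
ISG15: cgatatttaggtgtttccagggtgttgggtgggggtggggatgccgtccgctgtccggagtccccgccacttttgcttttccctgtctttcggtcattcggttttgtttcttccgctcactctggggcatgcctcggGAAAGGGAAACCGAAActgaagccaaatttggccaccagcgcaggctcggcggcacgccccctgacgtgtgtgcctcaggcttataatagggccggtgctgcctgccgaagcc
BST2: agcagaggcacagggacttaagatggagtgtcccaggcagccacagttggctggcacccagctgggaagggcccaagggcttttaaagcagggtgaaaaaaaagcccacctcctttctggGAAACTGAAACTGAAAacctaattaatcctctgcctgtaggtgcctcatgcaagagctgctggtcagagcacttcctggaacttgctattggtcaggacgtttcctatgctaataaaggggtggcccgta
In IFI44L the matches began 164 and 73 bases before the start and lay within an exact repeat of 85 bases, whose copies began 189 and 98 bases before the start. A repeat at least that long was found in 24 of 35116 windows (0.0683%). The IFI44 match lay on the opposite strand 18 bases before the start, and the longest stretch shared with IFI44L was 13 bases (agttggcatgctg). In ISG15 and BST2 the matches overlapped each other, beginning 113 and 107 bases and 130 and 124 bases before the start.

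The core was then counted in RefSeq windows of 300 bases, which also take in the 50 bases after the start. A match was found for 22 of the 32 genes of the set that have a window (68.8%), and for 19 of them within the 250 bases before the start. EIF2AK2, TLR3 and DTX3L had none in those 250 bases. A match was found in 1255 of all 35116 windows (3.57%), and for 352 of the 9327 tested genes with a window (3.77%). Over the 300 bases, all 5 lower genes, IFI44L and 14 of the 20 uncalled genes with a window held one. Of untested genes 2 of 6 held one. DDX58, STAT2, IRF1, HERC6, UBE2L6 and IFI35 were among those without a match. USP18, IFIT2, OAS2, OASL, IRF7, IFITM2 and MX2 were not matched to a window.

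**Figure D3:**
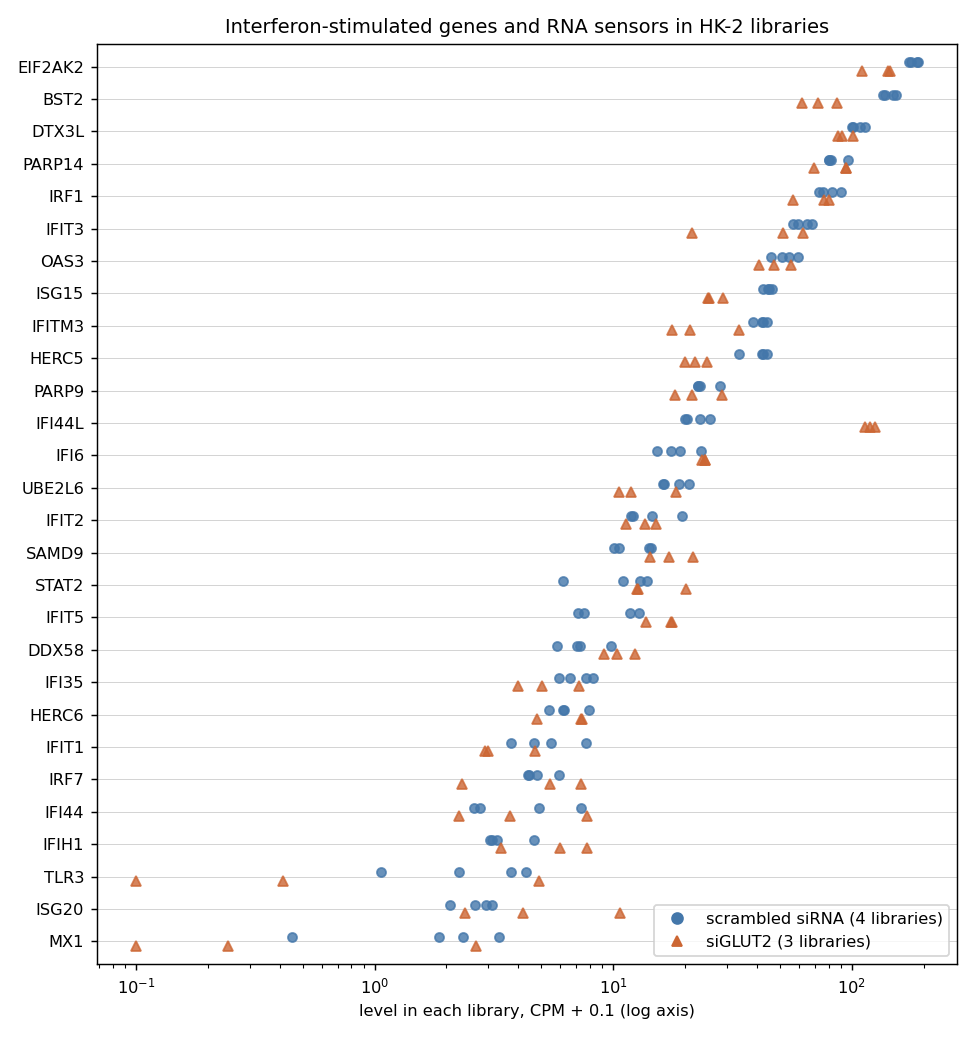
Level of each tested gene of the set in every library (log axis, CPM with 0.1 added), ordered by the level, with scrambled libraries as blue circles and siGLUT2 libraries as orange triangles. The siGLUT2 points of IFI44L lie above the scrambled points, and those of BST2, HERC5, IFITM3, ISG15 and EIF2AK2 lie below.

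Of the 4 RNA sensors, none was called higher. DDX58 (RIG-I), which binds short RNA with a triphosphate end, had 5.75, 7.20, 6.96 and 9.70 CPM in scrambled and 12.3, 9.08 and 10.3 CPM in siGLUT2 libraries. The groups overlapped by a single pair of libraries, and the log2 fold change was 0.52 ± 0.32 (95% interval -0.16 to 1.19). IFIH1 (MDA5), the sensor of long duplexes, had 2.94, 3.00, 4.55 and 3.17 CPM in scrambled and 7.67, 5.91 and 3.28 CPM in siGLUT2 libraries (0.71 ± 0.49). TLR3, the endosomal sensor, had 3.64, 0.959, 2.15 and 4.23 CPM in scrambled and 4.78, 0 and 0.313 CPM in siGLUT2 libraries (-0.70 ± 0.97). Its siGLUT2 libraries thus held both the highest and the lowest value. Without siGLUT2 replicate 2 TLR3 was called lower, at -4.02.

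EIF2AK2 encodes PKR, the kinase that halts translation when it binds double-stranded RNA, and it was the most abundant gene of the set. It had 188, 173, 177 and 190.1 CPM in the scrambled libraries and 141, 111 and 144 CPM in the siGLUT2 libraries. All 3 siGLUT2 libraries were below all 4 scrambled libraries, with means of 182 ± 8.31 and 132 ± 18.7 CPM. It was called lower at -0.46 ± 0.11. GPATCH11 overlaps it on the opposite strand and, at 49.2 and 53.7 CPM, was not called (0.12 ± 0.17), and without a known strand setting the reads of the pair cannot be told apart.

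In the ISG15 pathway, in which a ubiquitin-like protein is joined to other proteins, the modifier and its ligase were lower. ISG15 itself had 42.5, 46.3, 44.6 and 44.8 CPM in scrambled and 25.1, 24.8 and 28.8 CPM in siGLUT2 libraries. The groups were well apart (44.6 ± 1.58 and 26.2 ± 2.22 CPM), a log2 fold change of -0.77 ± 0.16 or a 1.7-fold lower level. HERC5, the main ligase for ISG15 in human cells, had 42.2, 33.6, 44.3 and 41.8 CPM in scrambled and 20.0, 21.9 and 24.7 CPM in siGLUT2 libraries. It too was without overlap, at -0.86 ± 0.18 or 1.82-fold lower. UBE2L6, the conjugating enzyme, had 17.9 and 13.5 CPM (-0.41 ± 0.26) and HERC6 had 6.33 and 6.41 CPM (0.02 ± 0.38), neither called. USP18, which removes ISG15 and dampens receptor signalling, had 0, 9, 0 and 4 counts in scrambled libraries and 0 in all 3 siGLUT2 libraries.

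Both tested membrane factors that hinder virus entry or release were lower. BST2 (tetherin), which holds budding virions at the cell surface, had 149, 154, 135 and 138 CPM in scrambled and 61.6, 86.9 and 72.4 CPM in siGLUT2 libraries. The means of 144 ± 8.86 and 73.6 ± 12.7 CPM gave -0.96 ± 0.12, or 1.95-fold lower, the furthest of the called lower genes. IFITM3, which blocks fusion in endosomes, had 42.0, 38.5, 42.2 and 44.3 CPM in scrambled and 17.6, 20.9 and 33.6 CPM in siGLUT2 libraries. It was called lower at -0.79 ± 0.20, with siGLUT2 replicate 4 nearest to the scrambled libraries. IFITM1, IFITM2 and IFITM3 are closely related and reads may be split between them, and the 3 genes summed gave -0.84 ± 0.21. In GENCODE, IFITM1 lies wholly within IFITM2 on the same strand. Reads that fall on both may have gone uncounted, and the sum cannot restore them. IFITM1 had 0, 11, 19 and 9 counts in scrambled and 0, 0 and 8 in siGLUT2 libraries. IFITM2 had 3, 3, 12 and 1 counts in scrambled and 0 in all siGLUT2 libraries.

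None of the IFIT genes, some of whose proteins bind foreign RNA ends and block translation, was called. IFIT3 had 59.7, 68.0, 56.4 and 64.9 CPM in scrambled and 62.4, 51.3 and 21.3 CPM in siGLUT2 libraries. Here 1 siGLUT2 library lay within the scrambled range and replicate 4 far below it, at -0.47 ± 0.23 (95% interval -0.95 to 0.01). Without siGLUT2 replicate 2 it was called lower, at -0.77. With all libraries it was also called lower by limma-voom with group weights and by the fit without a count filter. IFIT5 had 12.8, 11.6, 7.46 and 7.06 CPM in scrambled and 17.6, 17.4 and 13.6 CPM in siGLUT2 libraries, without overlap, at 0.73 ± 0.29. It lay just outside the threshold, as the uncalled gene with the smallest adjusted p, and the nearest gene inside it was IFITM3. Without scrambled replicate 1 IFIT5 was called higher, at 0.89, and without siGLUT2 replicate 4 at 0.84. With all libraries, limma-voom without group weights also called IFIT5 higher. IFIT1 (5.29 and 3.44 CPM, -0.61 ± 0.49) and IFIT2 (14.4 and 13.2 CPM, -0.12 ± 0.27) were not called. LIPA lies antisense to IFIT1, IFIT2 and IFIT3 and was not called (0.21 ± 0.17).

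Among OAS genes, whose products make the messenger that activates RNase L, OAS3 alone could be tested. It had 59.7, 51.1, 45.9 and 54.3 CPM in scrambled and 55.8, 47.0 and 40.8 CPM in siGLUT2 libraries, overlapping groups at -0.14 ± 0.16. OAS1 had 2 to 8 counts in scrambled and 2 to 11 in siGLUT2 libraries. OASL had 0, 0, 7 and 1 counts in scrambled and 0 in siGLUT2 libraries, and OAS2 was at 0 in all 7.

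PARP9, DTX3L and PARP14 act in ADP-ribosylation and ubiquitin marking, PARP9 and DTX3L as a complex, and they were well expressed in both groups. DTX3L had 100.1, 108, 101 and 113 CPM in scrambled and 87.1, 90.8 and 100.7 CPM in siGLUT2 libraries (-0.18 ± 0.11). PARP14 had 96.1, 82.2, 80.3 and 80.3 CPM in scrambled and 94.7, 94.2 and 69.7 CPM in siGLUT2 libraries (0.03 ± 0.13). PARP9 had 23.0, 22.7, 28.1 and 22.6 CPM in scrambled and 28.5, 18.0 and 21.3 CPM in siGLUT2 libraries (-0.10 ± 0.21). All 3 overlapped between groups, and the 95% interval for PARP14 was -0.25 to 0.30. PARP9 and DTX3L overlap on the genome.

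The transcription factors of the set were not called. IRF1, an early interferon target, had 82.7, 89.9, 72.9 and 75.8 CPM in scrambled and 56.8, 76.8 and 80.1 CPM in siGLUT2 libraries (-0.17 ± 0.14). STAT2 had 10.9 and 15.1 CPM (0.47 ± 0.31), and IRF7, which amplifies interferon production, had 4.79 and 4.91 CPM (0.05 ± 0.47). IRF9 had 4, 13, 5 and 3 counts in scrambled and 0, 0 and 17 in siGLUT2 libraries, too few to test.

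None of the remaining effectors was called. IFI6, a mitochondrial and endoplasmic reticulum protein, had 15.2 to 23.3 CPM in scrambled and 23.5 to 24.2 CPM in siGLUT2 libraries (0.37 ± 0.21), with no overlap. SAMD9, a translation inhibitor, had means of 12.2 and 17.6 CPM (0.53 ± 0.26), and IFI35 of 6.99 and 5.31 CPM (-0.39 ± 0.39). The exonuclease ISG20 had 1.96 to 3.00 CPM in scrambled and 4.09, 2.31 and 10.6 CPM in siGLUT2 libraries (1.13 ± 0.57). Without siGLUT2 replicate 3 ISG20 was called higher, at 1.51. MX1, a GTPase that traps viral nucleocapsids, had 0.353 to 3.24 CPM in scrambled and 2.56, 0.144 and 0 CPM in siGLUT2 libraries (-1.12 ± 1.08), and was called lower, at -4.40, without siGLUT2 replicate 2. TLR3 and MX1 passed the count filter mainly through the scrambled group. IFI27 had 0, 0, 3 and 2 counts in scrambled and 0 in siGLUT2 libraries, SAMD9L had 1 to 10 and 5 to 18 counts, and MX2 and XAF1 were at 0 in every library.

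Summed over the 39 genes, the level was 968 to 1044 CPM in scrambled and 900.2 to 938 CPM in siGLUT2 libraries. IFI44L made up 1.93% to 2.47% of that sum in scrambled and 12.6% to 13.3% in siGLUT2 libraries. Without it the sums were 948 to 1021 and 786 to 813 CPM. Of the 27 other tested genes, 17 had a 95% interval that ended below a log2 fold change of 1. The interval lay wholly below 0 for 5, contained 0 for 21 and lay wholly above 0 for IFIT5 alone (0.13 to 1.33).

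In an earlier analysis of these libraries the words GACCTTA and ACCTTAA in 3′ untranslated regions were picked from the fold changes of these same samples. Their presence in the set is given as a description. EIF2AK2, IFIH1, IFIT1 and SAMD9 hold one of them, 4 of the 28 tested genes of the set (14.3%), beside 1914 of all 11654 tested genes with such a region (16.4%) and 398 of the 1720 called lower (23.1%). None of the 11 untested genes held one. Of all tested genes called higher, 204 of 1684 (12.1%) held one. Of the 5 lower genes EIF2AK2 was the only one with a word, and neither IFI44L nor IFI44 held one. The region scanned was 8063 bases long for EIF2AK2 and from 62 (ISG15) to 403 bases (BST2) for the other lower genes. It was 4336 bases for IFI44L and 267 for IFI44. The part of length in these matches was not tested.

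Genes of the pathway outside the set were taken from 4 lists written from general knowledge of it. No interferon gene could be tested. Of 21 ligand genes, 18, IFNB1 among them, were at 0 in all 7 libraries, and IFNL3, IFNG and IFNA13 had 4, 1 and 2 counts in single scrambled libraries. A count of 0 over a group allows a level of up to 0.103 CPM in the scrambled and 0.156 CPM in the siGLUT2 libraries, at 3 counts over the group and for counting error alone. Of the 6 receptor chain genes, 3 rose and none fell, a share called of 50% beside 28.3% of all genes tested. IFNAR2, a chain of the type I receptor, had 49.9, 58.5, 59.3 and 55.0 CPM in scrambled and 117, 124 and 94.4 CPM in siGLUT2 libraries, and rose by 1.01 ± 0.13 (adjusted p = 3.41e-06). IFNGR2, of the type II receptor, rose from 59.2 to 99.2 CPM (0.74 ± 0.13, adjusted p = 0.000131). TMEM50B, on the opposite strand of IFNGR2, rose too, from 14.5 to 26.0 CPM, and reads of the pair cannot be told apart.

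IL10RB, a chain shared by the lambda interferon and IL-10 receptors, rose from 41.0 to 55.2 CPM (0.43 ± 0.15, adjusted p = 0.0351). That call was lost without any of the 4 scrambled libraries and without siGLUT2 replicate 3 or 4, with adjusted p between 0.0576 and 0.115. With the replicate number as a block the adjusted p was 0.13. IFNAR1, the other type I chain, had 50.5 and 43.0 CPM (-0.23 ± 0.15, adjusted p = 0.271). IFNAR2, IL10RB, IFNAR1 and IFNGR2 lie in this order on chromosome 21 between 33229901 and 33479348, and neighbours thus differed in whether they were called. In GENCODE, AP000295.1 overlaps both IFNAR2 and IL10RB on the same strand. How reads that it shares with them were counted is not stated.

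Of 24 JAK-STAT genes, 1 rose and 2 fell, a share called of 12.5% beside 28.3% of all genes tested. PTPN1, a phosphatase of JAK kinases, fell from 464 to 348 CPM (-0.41 ± 0.09, adjusted p = 0.000778). STAT6, the factor of interleukin-4 signalling, rose from 110.5 to 144 CPM (0.39 ± 0.11, adjusted p = 0.0124). Without scrambled replicate 1 its adjusted p was 0.0536 and with the replicate block 0.0702. Of the tested genes that overlap STAT6, LRP1 also rose and NAB2 was not called (-0.49 ± 0.25). JAK1 (346 and 339.6 CPM) and the inhibitors SOCS1 and SOCS3 were not called.

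Of 34 tested genes for other sensors and their adaptors, 5 rose and 2 fell (20.6% called, beside 28.3% of all genes tested). IFI16, a sensor of DNA, rose from 70.1 to 149.8 CPM (1.09 ± 0.11, adjusted p = 1.04e-07). ZNFX1, a helicase that detects RNA at mitochondria, rose from 82.9 to 136 CPM (0.72 ± 0.11, adjusted p = 2.75e-05), as did ZFAS1 on its opposite strand. IRF2, which competes with IRF1 for promoters, rose from 17.2 to 35.3 CPM (1.04 ± 0.21, adjusted p = 0.000597). TICAM1, the adaptor of TLR3, rose from 24.0 to 39.4 CPM (0.71 ± 0.19, adjusted p = 0.00623). The calls of TRAF3, TRIM25 and DHX9 were lost when certain libraries were left out. TRAF3, a ligase downstream of the adaptors, rose by 0.42 ± 0.13, with adjusted p between 0.0547 and 0.0587 without scrambled replicate 1 or 4 or siGLUT2 replicate 3. TRIM25, a ligase that acts with RIG-I, fell by 0.55 ± 0.16, with an adjusted p of 0.0678 without scrambled replicate 2. The helicase DHX9 fell by 0.35 ± 0.11, with adjusted p between 0.0558 and 0.067 without scrambled replicate 3 or 4 or siGLUT2 replicate 4. MAVS, the adaptor of RIG-I and MDA5, was not called (-0.06).

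Of 46 tested interferon-stimulated genes outside the set, 8 rose and 11 fell, a share called of 41.3% beside 28.3% of all genes tested. Their median log2 fold change was 0.02. The guanylate-binding protein gene GBP1 rose from 20.2 to 44.5 CPM (1.14 ± 0.17, adjusted p = 3.14e-05), and reads of GBP genes may be split between paralogs. SP100, of nuclear bodies, rose from 49.1 to 85.4 CPM (0.80 ± 0.14, adjusted p = 0.00013). C19orf66, also called SHFL, an inhibitor of viral frameshifting, fell from 17.9 to 5.17 CPM (-1.79 ± 0.32, adjusted p = 0.000172). NMI, a partner of STAT proteins, fell from 78.0 to 45.9 CPM (-0.77 ± 0.14, adjusted p = 0.000209). GBP2, AGRN, TRIM14, MOV10 and RNF213 also kept their calls under all 19 other fits, GBP2 and AGRN as higher and the other 3 as lower. The other 10 of the 19 called genes lost theirs under at least 1 fit. The chemokine CXCL10 had at most 9 counts in a library, and CXCL9, CXCL11 and CCL8 were at 0 in all 7.

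**Figure D4:**
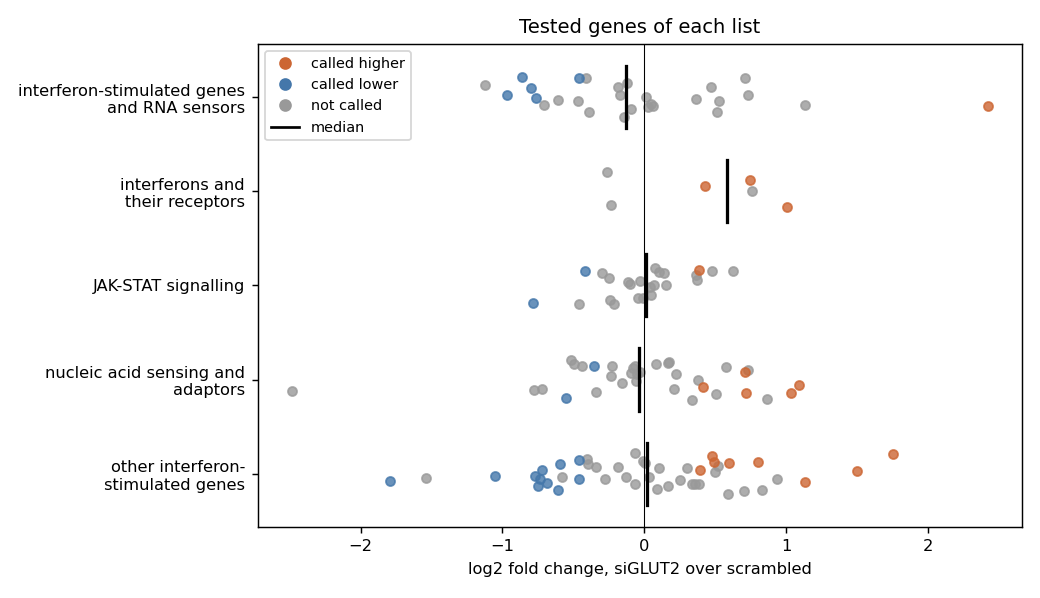
Log2 fold change of siGLUT2 over scrambled (x axis) for each tested gene of the set and of the 4 other lists (y axis), coloured by call, with the median of each list as a black bar. The medians are -0.13 for the set, 0.59 for the 6 receptor chains and between -0.04 and 0.02 for the other 3 lists, with calls in both directions in each list but the receptors.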

How the data were processed

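Total RNA of 7 HK-2 libraries (125 ng each) was sequenced as 3′ digital mRNA-seq by a company, with 100 single-end cycles, per the labels' protocols. The authors deposited 1 table of raw, whole-number counts per gene. The submitters' processing notes name STAR, HTSeq, edgeR and hg38 but no version or role. For the annotation release, strand setting and molecular identifiers nothing is given in the sources used here. Groups came from the sample titles, and all value columns were matched by name.

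The fit over all 7 libraries was made in R 4.3.3 with edgeR 4.0.16. Genes were kept by filterByExpr at a minimum count of 10 and total of 15, libraries were scaled by TMM, and the robust quasi-likelihood test (glmQLFTest) had no covariate. Benjamini-Hochberg adjusted p below 0.05 counted as a call. CPM are TMM-scaled. The script was tested on simulated data. Alternatives were DESeq2 1.42.0, limma-voom 3.58.1 with and without group weights, other scalings and filters, thinning, non-robust fitting, IFITM genes summed, thresholds of 0.01 and 0.1, a replicate block and each library left out. Deviations of equally numbered libraries correlated at 0.0095, 0.0152 and -0.0032, so the numbers were not taken as pairs.

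The members, the 4 pathway lists, the marker lists and the tests were chosen with earlier results of these data known. Values in every library are given for IFI44L, IFI44, the sensors, the called members and the 6 other members of highest CPM; each other list names up to 4 called genes with the smallest adjusted p, and further genes were named after their values were seen. Positions came from GENCODE 29 (39 of 39 members found) and promoter windows from RefSeq GRCh38.p14 (32 members), scanned in Python 3.11.15 with pandas 2.3.3. Coordinates count from 1. A few genes of the lists are not reported here, although totals over each list cover them.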

Additional observations from a re-analysis of the deposited data

Results flagged for a closer look

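In 7 of 65 sets of 4 scrambled libraries, 1 library stood apart from the other 3 by Dixon's criterion. Chance sets apart about 1 group in 20, and the criterion was not applied to the 3 siGLUT2 libraries. Among genes of the set, scrambled replicate 3 was high for IFIH1 (4.55 CPM, next 3.17) and PARP9 (28.1 CPM, next 23.0), and scrambled replicate 1 was high for PARP14 (96.1 CPM, next 82.2). Among other interferon-stimulated genes, scrambled replicate 3 was high for DDX60 (27.4 CPM, next 17.4) and scrambled replicate 4 for SLFN5 (35.6 CPM, next 29.5). Scrambled replicate 1 was low for GBP2 (2.24 CPM, next 4.68) and PARP12 (23.1 CPM, next 32.4).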

How the results depend on the processing

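The 6 called genes of the set kept their call and direction in all 19 other fits, in which 6 to 9 of the set were called. Of the 22 uncalled genes, 5 (TLR3, MX1, IFIT3, IFIT5 and ISG20) were called in at least 1 fit. No called gene changed direction. Of the 28 tested genes, 6 uncalled ones had fold changes on both sides of 0 over these fits: IFI44 (-0.57 to 0.42), IRF7 (-0.34 to 0.39), IFIT2 (-0.22 to 0.06), PARP9 (-0.30 to 0.04), PARP14 (-0.05 to 0.15) and HERC6 (-0.09 to 0.19). At an adjusted p below 0.01, 2264 genes were called in all, 4 among sensors and adaptors and 10 among the other interferon-stimulated genes, and below 0.1, 11 among sensors and adaptors. Leaving out each library in turn gave 2796 to 3778 called genes in all, 6 to 9 in the set, 2 to 3 receptor chains, 2 to 4 JAK-STAT genes, 5 to 10 sensors and adaptors and 13 to 21 other interferon-stimulated genes, with a median of the set between -0.20 and -0.11. With the replicate block, for numbers that did not pair the libraries, 2649 genes were called, 6 in the set, with IFI44L at 2.45. SLC2A2, called lower in the main fit, lost its call there, at an adjusted p of 0.0577. With counts of 0 in every siGLUT2 library it passed the count filter through the scrambled libraries alone. Its call is therefore no independent check of the siRNA. Counts of 0 to 19 per library limit 11 genes of the set to their counts.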
